A study of Homo sapiens with 12 samples.

Results

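The genes described are 6 histone H3 lysine 9 (H3K9) methyltransferases (SETDB1, SETDB2, SUV39H1, SUV39H2, EHMT1 and EHMT2), the 3 heterochromatin protein 1 (HP1) genes (CBX1, CBX3 and CBX5) and the corepressor TRIM28. They are 10 of the 20043 genes with a probe on the array, and every probe annotated to their symbols was taken, 15 in all. Of these, 12 probes were detected on at least 2 arrays (detection p under 0.05) and were tested, at least 1 for each gene. The other 3, 1 each of EHMT1, EHMT2 and CBX3, were detected on 0 arrays, with detection p-values of 0.0896 to 0.67, 0.0987 to 0.725 and 0.394 to 0.818.

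RNA was measured on Illumina bead arrays in H9 and CT2, established lines of human embryonic stem cells. The groups were H9 with a short hairpin RNA (shRNA) against JMJD1C, H9 with a mismatch shRNA (the control hairpin), H9 with no hairpin (untreated), and the same 3 for CT2, with 2 arrays in each of the 6 groups and 12 arrays in all. The labels give neither the hairpin sequences, the vector, the time after its delivery nor whether replicates were separate cultures, so p-values measure the spread between these arrays, which may be technical.

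Methylation of H3K9 marks silent chromatin, and the HP1 proteins read it through their chromodomains. SETDB1 is brought to retroviral elements and imprinted regions by TRIM28 bound to zinc finger repressors, the SUV39H enzymes act at pericentromeric repeats, and EHMT1 and EHMT2 work as a pair over silent genes. JMJD1C belongs to the jumonji family whose relatives KDM3A and KDM3B remove H3K9 methyl groups, so the comparison asks whether RNA of the enzymes that write and read the mark changed when JMJD1C was reduced.

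JMJD1C itself was measured by 2 detected probes. The brighter gave log2 intensities of 10.60 and 10.71 in H9 knockdown, against 11.95 and 11.51 in H9 mismatch, and of 10.77 and 10.71 in CT2 knockdown, against 12.06 and 12.38 in CT2 mismatch. The 4 knockdown arrays lay below all 4 mismatch arrays, and the mean of both lines fell by 1.28 ± 0.19 on the log2 scale (limma, adjusted p = 0.00138), to 41.2% of the mismatch level. The second probe fell by 1.44 ± 0.21 (adjusted p = 9.27e-04). In H9 the second probe passed the threshold (-1.24, adjusted p = 0.0499) and the brighter did not (-1.08, adjusted p = 0.0696), and in CT2 both passed (second probe -1.64, adjusted p = 0.0104; brighter probe -1.48, adjusted p = 0.0117). Its remaining probe was at background on all arrays.

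Median non-normalized intensity per array ran from 150.2 to 196.8, and 44.7% to 47.3% of probes were detected. Some arrays stood apart from their labels. CT2 mismatch replicate 2 correlated best across kept probes with H9 untreated replicate 1 (r = 0.974), above its own replicate (r = 0.964), and on the first principal component it lay at -43.1, beside the 2 untreated H9 arrays at -64.1 and -32.7, while the other 5 CT2 arrays lay between 18.2 and 50.9. Whether that array carries the right label could not be settled from the files, which bears on every CT2 mismatch value below. CT2 mismatch replicate 1 matched H9 mismatch replicate 2 best (r = 0.978), H9 untreated replicate 2 matched H9 mismatch replicate 1 (r = 0.985), and CT2 knockdown replicate 2 matched CT2 untreated replicate 2 (r = 0.986). CT2 mismatch replicate 2 and the array it matched, untreated H9 replicate 1, are called the odd arrays, and several results below are also given without them. Untreated H9 replicate 1 itself matched its own replicate best (r = 0.977). CT2 mismatch replicate 1 matched an H9 array better than its own replicate, but is not among the odd arrays.

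All 9 embryonic stem cell markers on the array (POU5F1, NANOG, SOX2, LIN28A, DPPA4, DNMT3B, ZFP42, L1TD1 and SALL4) were detected on every array, and their summed linear intensity ran from 146440 to 184025. Of 7 fibroblast markers, between 3 and 5 were detected on an array, with COL3A1 and LUM on 0 arrays. The fibroblast sum was 13793 and 14633 in H9 knockdown, against 9540 and 10092 in H9 mismatch, and 13333 and 10926 in CT2 knockdown, against 10674 and 8529 in CT2 mismatch. Among the fibroblast markers THY1, which stem cells also carry on their surface, rose with the knockdown (0.71, limma adjusted p = 0.00256) and COL1A1 fell (-1.05, adjusted p = 0.00757). Whether this bears on the values below was not tested, and fewer cells of a type cannot be told apart from less RNA per cell. Neural progenitor, mesoderm and trophoblast sums stayed at or below 356 on every array, with PAX6, SOX1 and TBXT undetected. Other genes of these lists were detected. On an array it was 1 of 3 neural progenitor genes, 0 or 1 of 5 mesoderm genes and 0 to 3 of 5 trophoblast genes. Between knockdown and mismatch 0 of 9 measured stem cell markers passed in the mean of both lines or in CT2. In H9, ZFP42 (REX1) fell by 1.22 ± 0.17 (adjusted p = 0.00116), with a difference between the lines of -1.87 (adjusted p = 0.00134), and its part in the H9 values below was not tested. The endoderm sum ran from 563 to 1792, with AFP higher (0.99, adjusted p = 0.00716), and all 8 markers of dividing cells were detected on every array, with TOP2A lower (-0.71, adjusted p = 0.00783) and 7 not past the threshold.

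The 10 genes differed widely in how much they varied over the 12 arrays. The brighter EHMT1 probe had a standard deviation of 0.68 on the log2 scale, above 94.6% of kept probes, and TRIM28 one of 0.55, above 86.8%. SETDB2 had 0.16, above 3.39%, EHMT2 0.22, above 12.3%, and CBX5 0.23, above 14.3%. The variable genes varied mostly between arrays of 1 group or with the arrays named above.

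TRIM28, the scaffold that joins KRAB zinc finger proteins to SETDB1 and HP1, shows this. Its log2 intensity was 12.57 and 13.27 in H9 knockdown, 12.85 and 12.62 in H9 mismatch and 13.56 and 13.81 in untreated H9. It was 13.43 and 12.48 in CT2 knockdown, 12.43 and 13.53 in CT2 mismatch and 12.30 and 12.35 in untreated CT2. High values, of 13.27 and above, thus fell on 1 array of H9 knockdown, both untreated H9 arrays, 1 of CT2 knockdown and 1 of CT2 mismatch, and no array lay between 12.85 and 13.27.

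EHMT1, whose product (GLP) pairs with EHMT2 (G9a) to place H3K9 mono- and dimethylation, had a brighter probe at 8.38 and 8.34 in H9 knockdown, 8.66 and 7.82 in H9 mismatch and 9.36 and 9.53 in untreated H9. In CT2 it read 8.86 and 8.05 with the knockdown, 7.52 and 9.51 with the mismatch hairpin and 8.11 and 7.92 untreated. The same 3 arrays were highest with the dimmer EHMT1 probe, which read 7.13 and 6.85 in untreated H9 and 7.72 on CT2 mismatch replicate 2, against 5.66 to 6.26 on the other 9 arrays. That probe was detected on 8 of 12 arrays, and the 2 probes correlated with r = 0.768 over the 12.

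CBX1 (HP1 beta) had its 2 highest values on H9 untreated replicate 1 (12.12) and CT2 mismatch replicate 2 (11.78), and lay between 10.83 and 11.38 on the other 10 arrays. SUV39H1, which places H3K9 trimethylation at pericentromeres, ran the other way. It had its 3 lowest values on untreated H9 (10.08 and 10.82) and CT2 mismatch replicate 2 (10.62), and lay between 11.17 and 11.67 on the other 9. SUV39H2, its paralogue, read 6.09 on CT2 mismatch replicate 2 and 7.04 to 7.76 elsewhere.

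**Figure D1:**
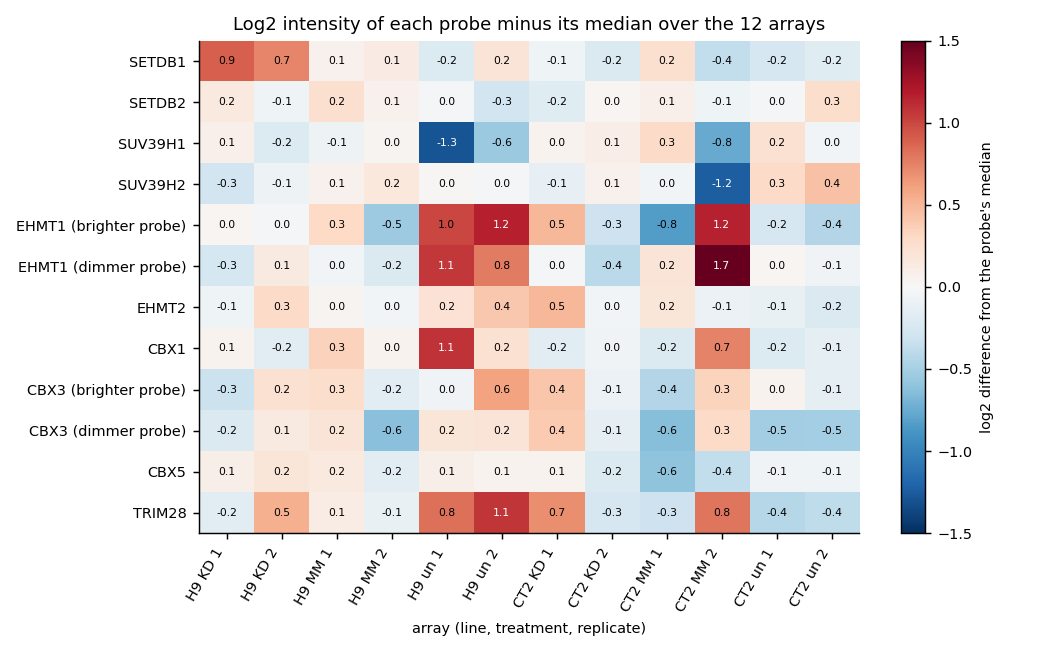
Log2 intensity of each of the 12 tested probes (rows) minus that probe's median over the 12 arrays (columns; KD, JMJD1C shRNA; MM, mismatch shRNA; un, untreated), in log2 units. EHMT1 and TRIM28 are raised, and SUV39H1 lowered, on the untreated H9 arrays and on CT2 mismatch replicate 2. CBX1 stands out on untreated H9 replicate 1 and CT2 mismatch replicate 2. TRIM28 is also raised on H9 knockdown replicate 2 and CT2 knockdown replicate 1. SETDB1 stands out on the 2 H9 knockdown arrays.

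The sign of the difference between the 2 replicates of a group was also set beside that of TRIM28. For the dimmer CBX3 (HP1 gamma) probe the signs matched in 6 of 6 groups, as for 1.86% of all kept probes, and for the brighter CBX3 probe in 5 of 6, as for 11.02%. Both EHMT1 probes, EHMT2 and CBX5 matched in 4 of 6 (22.8% of kept probes), CBX1 and SETDB1 in 3 (26.6%), SETDB2 and SUV39H2 in 2 (23.5%) and SUV39H1 in 1 (12.4%). EHMT1 and CBX1 were high, as TRIM28 was, on H9 untreated replicate 1 and CT2 mismatch replicate 2. They matched TRIM28 in numbers of groups that are common among all probes, and nothing was tested on these signs. The 2 CBX3 probes correlated with r = 0.779 over the 12 arrays. The gene table names 10 pseudogenes of CBX3, 5 of CBX1 and 1 of CBX5, so probes of these genes may also capture RNA from near copies.

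Sequences before the start sites of EHMT1 and CBX1, which were high on the arrays just named, of SUV39H1, which was low there, and of SETDB1, which stood out on other arrays, are given for comparison. Sequences are the 150 bases before a RefSeq transcription start on GRCh38.p14, 5′ to 3′ on the gene's strand, and 9 of the 10 genes matched the table (TRIM28 did not). SUV39H1 and SETDB1 each have 2 start sites in the table, and the one with more CpG sites is printed. Capitals mark a GC box (GGGCGG), the CCAAT motif or the core site of ETS family factors (CCGGAAG, called an ETS core), searched on both strands, with no overlap between marked matches.
EHMT1: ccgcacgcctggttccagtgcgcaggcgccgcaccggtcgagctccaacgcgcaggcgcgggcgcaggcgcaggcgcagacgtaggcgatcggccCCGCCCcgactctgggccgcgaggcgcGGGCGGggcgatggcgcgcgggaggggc
CBX1: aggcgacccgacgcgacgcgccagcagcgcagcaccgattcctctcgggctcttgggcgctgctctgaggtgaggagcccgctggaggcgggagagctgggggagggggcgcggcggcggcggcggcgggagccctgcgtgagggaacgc
SUV39H1: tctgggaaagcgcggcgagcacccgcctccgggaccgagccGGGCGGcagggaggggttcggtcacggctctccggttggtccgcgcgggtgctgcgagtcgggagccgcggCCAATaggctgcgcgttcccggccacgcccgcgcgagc
SETDB1: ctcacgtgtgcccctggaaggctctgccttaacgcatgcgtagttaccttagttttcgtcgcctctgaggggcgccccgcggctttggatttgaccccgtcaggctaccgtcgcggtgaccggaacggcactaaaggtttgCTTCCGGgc

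The EHMT1 window (chr9:137618855-137619004, plus strand) was 80.7% G and C with 28 CpG sites and 2 GC boxes. The CBX1 window (chr17:48101187-48101336, minus strand) was 76.7% G and C with 21 CpG sites and no GC box, CCAAT box or ETS core. The SUV39H1 window (chrX:48696584-48696733, plus strand) was 76.7% G and C with 25 CpG sites, 1 GC box and 1 CCAAT box, and the SETDB1 window (chr1:150926213-150926362, plus strand) 61.3% with 15 CpG sites and 1 ETS core. Over 35116 RefSeq windows of this length the median was 60% G and C with 7 CpG sites. A GC box was found in 36.8% of them, a CCAAT box in 23.5%, an ETS core in 6.8% and a TATA box (TATAAA) in 6.7%, and none of the 4 windows printed held a TATA box. The windows not printed were lower in both measures, with 51.3% G and C and 3 CpG sites for SUV39H1 and 54.7% and 8 for SETDB1, and held none of the motifs.

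The methyltransferases were compared first between knockdown and mismatch hairpins. None of their 7 tested probes passed the threshold in the mean of both lines. SETDB1, which places H3K9 trimethylation with TRIM28, read 11.36 and 11.20 in H9 knockdown, against 10.53 and 10.59 in H9 mismatch and 10.25 and 10.65 in untreated H9. In CT2 it read 10.40 and 10.24 with the knockdown, against 10.70 and 10.09 with the mismatch hairpin and 10.21 and 10.28 untreated. The 2 H9 knockdown arrays were the highest of all 12, with no overlap, while in CT2 the 3 groups overlapped.

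In H9 the SETDB1 difference, knockdown minus mismatch, was 0.72 ± 0.24 on the log2 scale (95% interval 0.22 to 1.22), a fold of 1.65, with an unadjusted p of 0.00755 and an adjusted p of 0.215 (limma over 25905 probes). In CT2 it was -0.08 ± 0.24 (interval -0.58 to 0.42, adjusted p = 0.916). The difference between the lines was 0.80 (interval 0.09 to 1.51), with an adjusted p of 0.5. Leaving out both odd arrays gave the H9 difference an adjusted p of 0.0248 at an unchanged size of 0.72. Neither odd array was in that comparison, and why the adjusted p changed was not tested. Leaving out single arrays gave adjusted p-values of 0.0827 to 0.827. SETDB1 is measured by 1 probe.

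SETDB2, a SETDB1 relative with a similar split SET domain, varied little. Its 12 values lay between 9.38 and 9.94, and its difference was -0.10 ± 0.16 in the mean of both lines (interval -0.44 to 0.25, adjusted p = 0.830). EHMT2 lay between 8.95 and 9.65 and differed by 0.15 ± 0.18 (interval -0.23 to 0.53, adjusted p = 0.745). Both intervals leave out a doubling, a log2 difference of 1, in either direction.

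SUV39H1 read 11.45 and 11.17 in H9 knockdown, against 11.30 and 11.42 in H9 mismatch, and 11.43 and 11.47 in CT2 knockdown, against 11.67 and 10.62 in CT2 mismatch. In CT2 both knockdown arrays lay within the range of the mismatch arrays, and in H9 1 lay above that range and 1 below. The difference in the mean of both lines was 0.13 ± 0.21 (limma, adjusted p = 0.823). SUV39H2 read 7.04 and 7.25 in H9 knockdown, against 7.39 and 7.48 in H9 mismatch, and 7.20 and 7.39 in CT2 knockdown, against 7.29 and 6.09 in CT2 mismatch. It was lower on both H9 knockdown arrays (-0.29 ± 0.36, adjusted p = 0.914) and differed by 0.60 ± 0.36 in CT2 (adjusted p = 0.423). The CT2 knockdown arrays lay on either side of CT2 mismatch replicate 1, at 7.29. Without CT2 mismatch replicate 1 the CT2 difference was 1.204, with the mismatch group then the array at 6.09 alone.

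The brighter EHMT1 probe differed by 0.03 ± 0.35 (interval -0.73 to 0.79, adjusted p = 0.982). The dimmer probe differed by -0.54 ± 0.29 in the mean of both lines (adjusted p = 0.364) and by -1.14 ± 0.41 in CT2 (adjusted p = 0.163), where it read 6.04 and 5.66 with the knockdown, against 6.26 and 7.72 with the mismatch hairpin. Without CT2 mismatch replicate 1 it was called lower in CT2 (-1.87, adjusted p = 0.00733) and in the mean of both lines (-0.91, adjusted p = 0.0318). Only 1 of the 2 CT2 knockdown arrays detected this probe. The brighter probe of the gene gave -0.07 in CT2, and 0.94 without both odd arrays, with 1 CT2 mismatch array left. On that array, replicate 1, the brighter probe read 7.52, below the CT2 knockdown arrays at 8.86 and 8.05. The dimmer probe read 6.26 there, above both of its CT2 knockdown values, so the probes of EHMT1 disagreed.

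**Figure D2:**
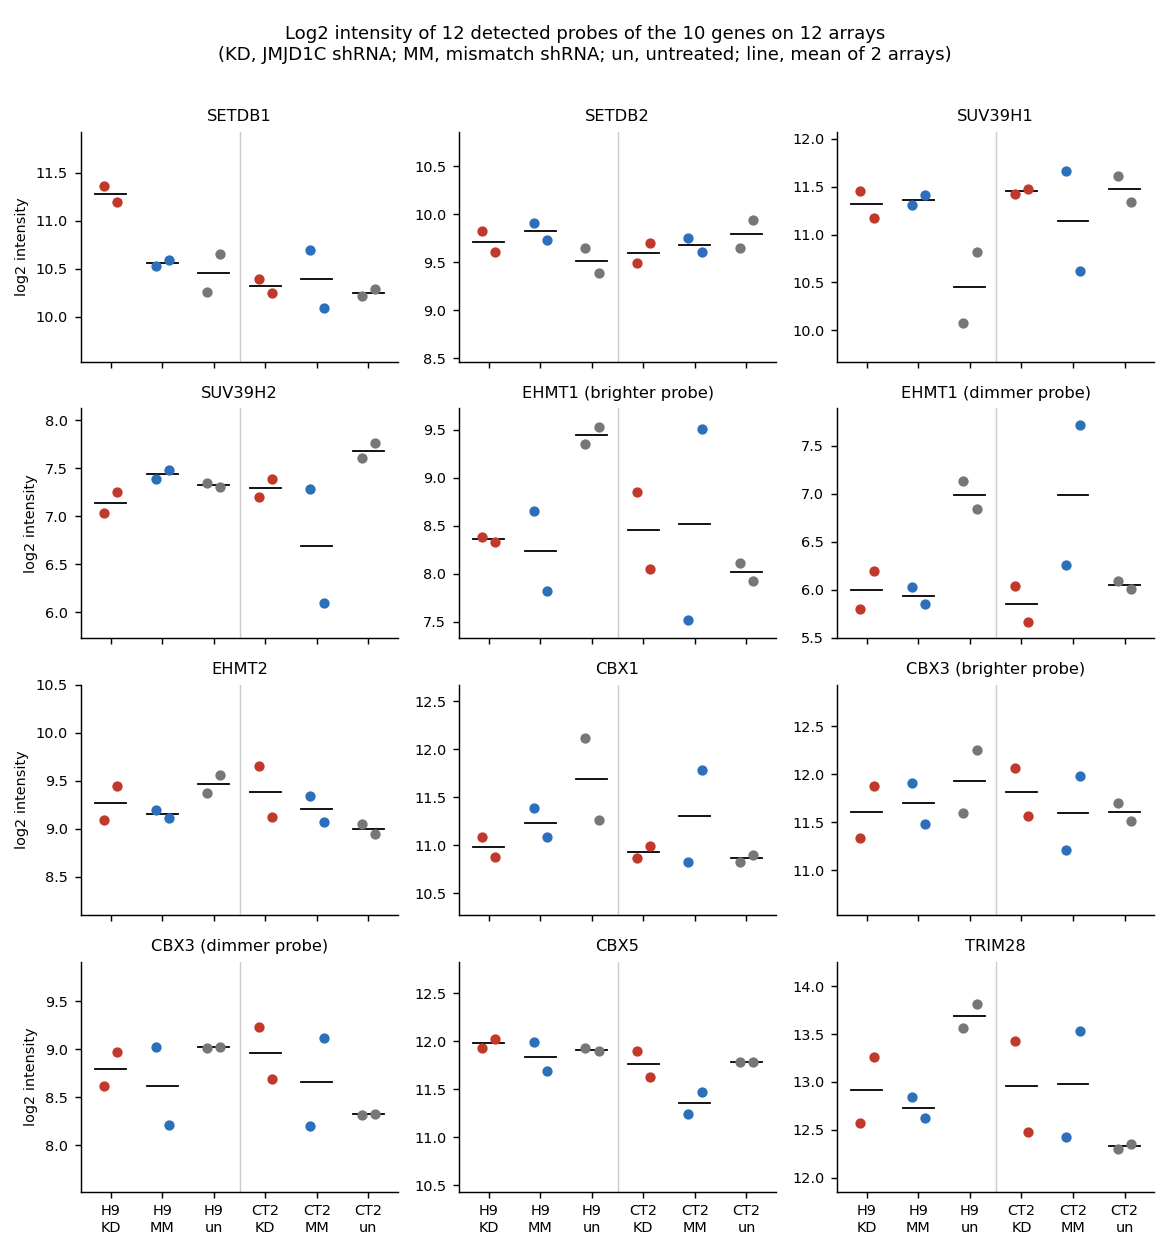
Log2 intensity of the 12 tested probes of the 10 genes, 1 panel a probe, on each array, by line and treatment (KD, JMJD1C shRNA; MM, mismatch shRNA; un, untreated). Points are arrays and horizontal lines the mean of 2; the vertical scale spans at least 2 log2 units in every panel. The SETDB1 values of H9 knockdown, 11.36 and 11.20, lie above all other arrays, while CT2 mismatch splits widely for EHMT1, SUV39H1, SUV39H2 and TRIM28.

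None of the 4 tested HP1 probes passed the threshold. CBX5 (HP1 alpha), found at pericentromeric heterochromatin, read 11.93 and 12.02 in H9 knockdown, against 11.99 and 11.69 in H9 mismatch, and 11.90 and 11.63 in CT2 knockdown, against 11.24 and 11.47 in CT2 mismatch. Its knockdown values lay above the mismatch values in CT2 and overlapped them in H9. The difference was 0.27 ± 0.13 in the mean of both lines (interval -0.01 to 0.56, adjusted p = 0.318) and 0.41 ± 0.19 in CT2 (unadjusted p = 0.0489, adjusted p = 0.294). Against the untreated arrays, which lay between 11.78 and 11.93, the knockdown differed by 0.02 ± 0.13 (adjusted p = 0.972) and the mismatch hairpin by -0.25 ± 0.13 (adjusted p = 0.440).

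CBX1 read 11.09 and 10.88 in H9 knockdown, against 11.38 and 11.09 in H9 mismatch, and 10.87 and 10.99 in CT2 knockdown, against 10.83 and 11.78 in CT2 mismatch. The values overlapped in CT2, and the difference was -0.31 ± 0.21 (interval -0.77 to 0.14, adjusted p = 0.502). CBX3, the HP1 protein also found over transcribed genes, read 11.33 and 11.88 in H9 knockdown, against 11.91 and 11.49 in H9 mismatch, with its brighter probe. In CT2 the same probe read 12.07 and 11.57 with the knockdown, against 11.21 and 11.99 with the mismatch hairpin. Both CBX3 probes overlapped between hairpins in both lines, with differences of 0.06 ± 0.21 (adjusted p = 0.923) and 0.24 ± 0.24 (adjusted p = 0.680).

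TRIM28 differed by 0.08 ± 0.26 in the mean of both lines (interval -0.48 to 0.64, adjusted p = 0.920), by 0.18 in H9 and by -0.02 in CT2. The 2 knockdown arrays of each line lay 0.70 and 0.95 apart, further than the group means.

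Counted together, 0 of the 12 probes were called between knockdown and mismatch in the mean of both lines (limma, adjusted p under 0.05), where 3.8% of all 25905 kept probes were. At an unadjusted p under 0.05 the count was 0 of 12, against 17.1% of all kept probes, and for 0 of 12 did the 4 knockdown arrays lie wholly apart from the 4 mismatch arrays, against 14.1%. Without both odd arrays the adjusted count was again 0 of 12, against 8.07% of 25084 probes kept then. The median log2 difference was 0.10 over the 12 probes and 0.01 over all, and the median size 0.152 against 0.208. The differences ran from -0.54 to 0.32, and the 95% intervals of 11 of the 12 lay within 1 log2 unit of 0. The exception was the dimmer EHMT1 probe, whose interval reached -1.15.

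Within the lines, 0 of 12 probes were called in H9, against 1.4% of kept probes, and 0 of 12 in CT2, against 2.03%. At an unadjusted p under 0.05 there was 1 in H9 (SETDB1), against 9.64%, and 2 in CT2 (CBX5 and the dimmer EHMT1 probe), against 16.9%. The difference between the lines was called for 0 of 12, against 0.205%, and reached an unadjusted p under 0.05 for 1, SETDB1, against 8.93%.

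**Figure D3:**
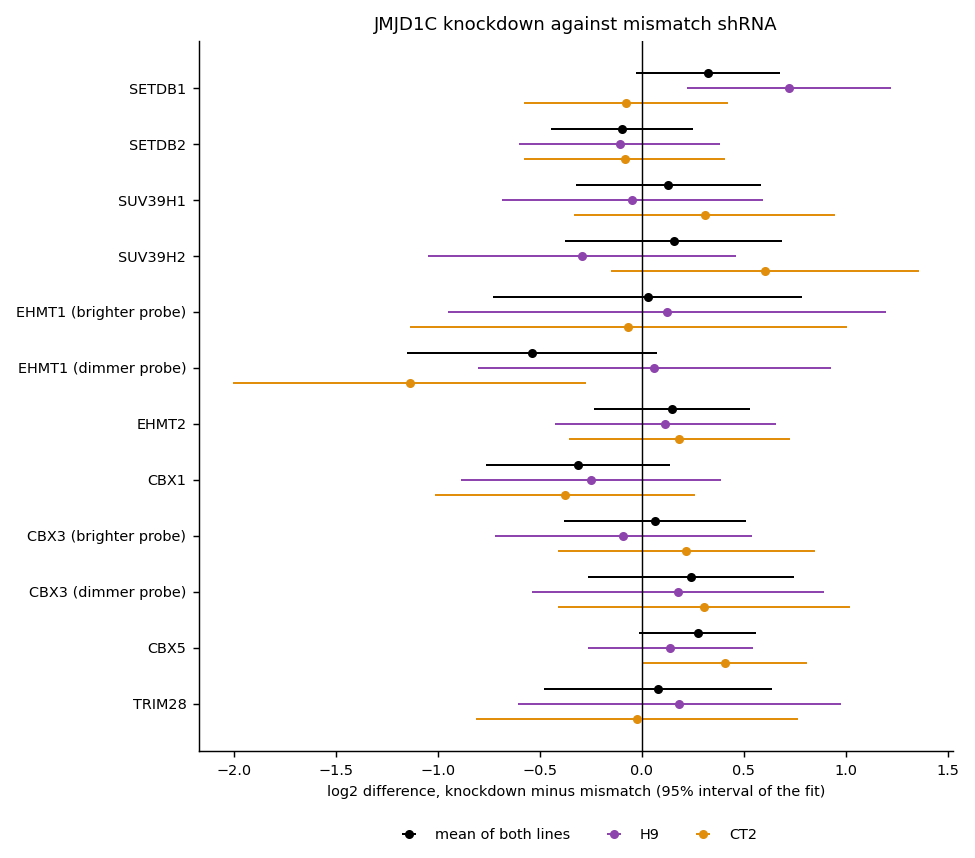
Log2 difference, knockdown minus mismatch, of the 12 tested probes in the mean of both lines, in H9 and in CT2. Points are fitted differences and bars their 95% intervals; the interval of SETDB1 in H9 (0.22 to 1.22) lies above 0 and that of the dimmer EHMT1 probe in CT2 (-2.00 to -0.27) below it, the interval of CBX5 in CT2 starts at 0, and none of the 3 passed the threshold after adjustment.

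The knockdown was also set against untreated cells, which shares the knockdown arrays with the comparison above. In the mean of both lines 0 of 12 probes were called, against 1.88% of kept probes, and 1, SETDB1, had an unadjusted p under 0.05, against 13.6%. SETDB1 averaged 10.80 on knockdown arrays and 10.35 on untreated arrays, a difference of 0.45 ± 0.17 (adjusted p = 0.216). It was 0.83 ± 0.24 in H9 (adjusted p = 0.104), where SUV39H1 differed by 0.87 ± 0.30 (adjusted p = 0.194) and the brighter EHMT1 probe by -1.08 ± 0.50 (adjusted p = 0.348).

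Between the mismatch hairpin and no hairpin, 0 of 12 probes were called in the mean of both lines, against 0.452%, and 0 had an unadjusted p under 0.05, against 13.5%. In H9 the mismatch arrays of SUV39H1 (11.30 and 11.42) lay above the untreated arrays (10.08 and 10.82), by 0.91 ± 0.30 (adjusted p = 0.540), and those of TRIM28 (12.85 and 12.62) below the untreated arrays (13.56 and 13.81), by -0.95 ± 0.36 (adjusted p = 0.549). Both hairpin groups of H9 thus lay on the same side of untreated H9 for these genes. Those 2 comparisons share the untreated arrays.

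H9 and CT2 were compared over the 3 treatments. Of the 12 probes, 0 were called, against 8.54% of kept probes, and 2, SETDB1 and CBX5, had an unadjusted p under 0.05, against 21.8%. For 0 of 12 did the 6 arrays of one line lie wholly apart from those of the other, against 2.83%. SETDB1 averaged 10.76 in H9 and 10.32 in CT2, a difference of 0.44 ± 0.14 with an adjusted p of 0.0554. CBX5 averaged 11.91 in H9 and 11.63 in CT2 (0.28 ± 0.11, adjusted p = 0.142).

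The call for SETDB1 between the lines turned with the processing. It passed with arrays scaled to a common median (0.65, adjusted p = 0.0165), with the authors' deposited value table (0.62, adjusted p = 0.00351), which also called CBX5 (0.46, adjusted p = 0.00750), and with 1 probe per gene (0.44, adjusted p = 0.0407). Under median scaling the median of all probes lay 0.14 higher in H9. Of all probes called between the lines, 44.1% were higher in H9, and this share was 75.1% under median scaling and 81.7% with the authors' table. Without both odd arrays 3 of 12 probes were called, SETDB1 (0.41, adjusted p = 0.0225), SUV39H1 (-0.37, adjusted p = 0.0363) and the brighter EHMT1 probe (0.72, adjusted p = 0.0142), against 17.1% of the probes kept then.

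The lines were also compared within each treatment. On knockdown arrays, a comparison added after the data were seen, 1 of 12 probes was called, against 2% of kept probes. It was SETDB1, higher in H9 by 0.96 ± 0.24 (adjusted p = 0.0457), with the values given above. The call held in 4 of 12 settings that each left out 1 array, where the adjusted p ran from 0.0103 to 0.380, and in the setting without both odd arrays (adjusted p = 0.00165). On mismatch arrays 0 of 12 were called, against 1.82%.

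On untreated arrays 2 of 12 probes were called, against 9.89% of kept probes. TRIM28 rose in H9 relative to CT2, with 13.56 and 13.81 in H9 and 12.30 and 12.35 in CT2 (1.36 ± 0.36, adjusted p = 0.0359). SUV39H1 fell in H9 relative to CT2, with 10.08 and 10.82 in H9 and 11.61 and 11.34 in CT2 (-1.03 ± 0.30, adjusted p = 0.0423). Neither gene's arrays overlapped between the lines, which with 2 arrays a side was common among the 12 probes. H9 lay wholly above CT2 for 7 of the 12 and wholly below for 2. The share over all kept probes was not counted. The brighter EHMT1 probe (1.43 ± 0.50, adjusted p = 0.0897) and CBX1 (0.82 ± 0.30, adjusted p = 0.0961) were also higher on both H9 arrays, without a call.

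Each call rested on few arrays. With single arrays left out, TRIM28 kept its call in 8 of 12 settings (adjusted p 0.00221 to 0.186) and SUV39H1 in 3 of 12 (adjusted p 0.00501 to 0.303). Without both odd arrays, TRIM28 differed by 1.48 (adjusted p = 0.0323) and SUV39H1 by -0.66 (adjusted p = 0.0529), with H9 then held by 1 untreated array, assumed to vary like the other groups. On the other treatments TRIM28 differed by -0.04 on knockdown arrays (adjusted p = 0.996) and -0.25 on mismatch arrays (adjusted p = 0.847), and SUV39H1 by -0.14 (adjusted p = 0.960) and 0.22 (adjusted p = 0.835). The change of the line difference between treatments passed the threshold for none of the 3 genes, with adjusted p-values of 0.5 (knockdown and mismatch) and 0.635 (knockdown and untreated) for SETDB1. They were 0.603 (knockdown and untreated) and 0.106 (mismatch and untreated) for TRIM28, and 0.650 (knockdown and untreated) and 0.115 (mismatch and untreated) for SUV39H1.

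**Figure D4:**
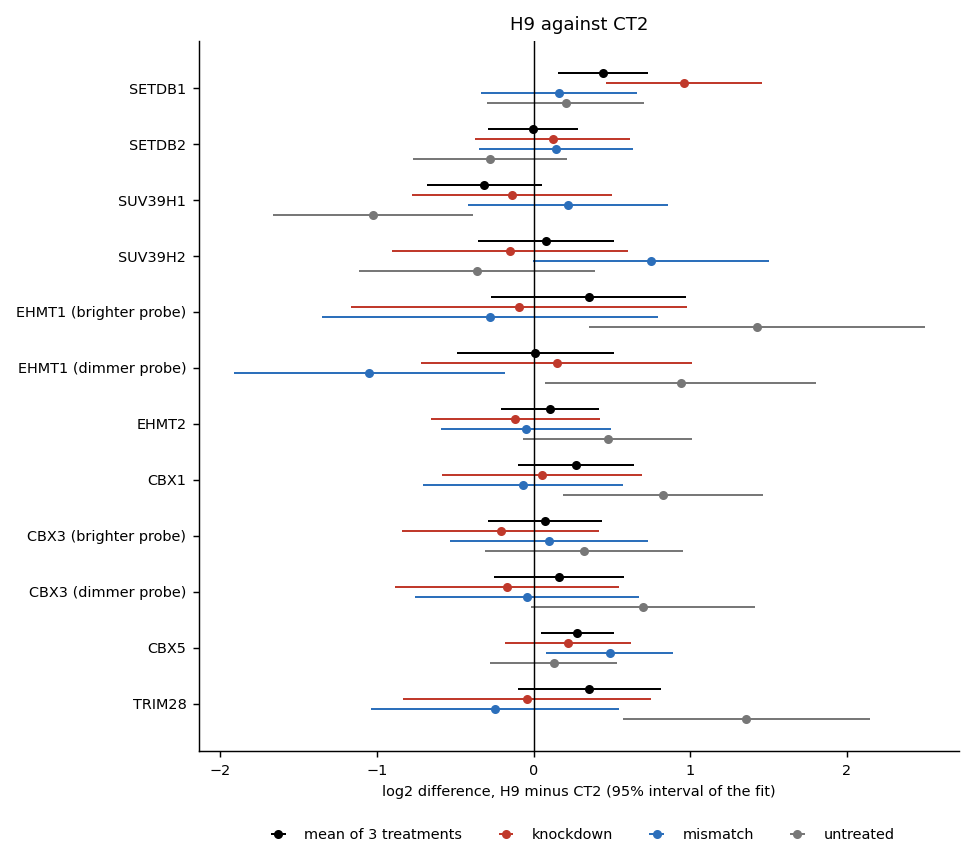
Log2 difference, H9 minus CT2, of the 12 tested probes over all 3 treatments and within knockdown, mismatch and untreated arrays. Points are fitted differences and bars their 95% intervals; the SETDB1 difference is largest on knockdown arrays (0.96) and those of TRIM28 (1.36) and SUV39H1 (-1.03) on untreated arrays.

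For each gene, the probe of another gene whose profile was most like its brightest probe over the 12 arrays was found among about 19075 probes, a description that the arrays standing apart also shape. SUV39H1 was closest to RNF220 (r = 0.980), TRIM28 to DGCR2 (r = 0.966), EHMT1 to CLSTN1 (r = 0.964) and SETDB1 to SPMIP6 (r = 0.958). CBX1 was closest to QRICH1 (r = 0.951), SUV39H2 to WTIP (r = 0.941), CBX5 to WDR6 (r = 0.929), CBX3 to SLC15A4 (r = 0.906) and EHMT2 to NIBAN2 (r = 0.904). SETDB2, the least variable, had the weakest best match, NIF3L1 (r = 0.845).

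Partner genes of the same pathways were taken from lists made with earlier results of these data known. Of 15 measured partners of TRIM28 and SETDB1, 1 rose and 1 fell between knockdown and mismatch in the mean of both lines, and 13 did not pass, with a list median of -0.05 against 0.01 over all probes. Of all kept probes 3.8% were called, and with 1 probe per gene 915 of 13951 genes. CHAF1A, the large subunit of the histone chaperone CAF-1, read 10.64 and 10.52 in H9 knockdown, against 9.85 and 10.06 in H9 mismatch, and 10.28 and 10.67 in CT2 knockdown, against 9.66 and 9.98 in CT2 mismatch. All 4 knockdown arrays lay above the 4 mismatch arrays, and CHAF1A rose by 0.64 ± 0.16 (adjusted p = 0.0326). Untreated arrays read 10.17 and 10.19 in H9 and 10.43 and 10.33 in CT2, and the knockdown differed from them by 0.25 ± 0.16 (adjusted p = 0.549).

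TRIM24, a bromodomain relative of TRIM28, read 11.98 and 12.26 in H9 knockdown, against 12.65 and 12.44 in H9 mismatch, and 12.31 and 11.82 in CT2 knockdown, against 12.86 and 13.44 in CT2 mismatch. The groups did not overlap, and TRIM24 fell by 0.75 ± 0.19 (adjusted p = 0.0360). Without CT2 mismatch replicate 2 the difference was -0.61 (adjusted p = 0.0767), without both odd arrays -0.61 (adjusted p = 0.0153), and under median scaling -0.57 (adjusted p = 0.138). Untreated CT2 arrays read 11.76 and 12.24, overlapping the CT2 knockdown. Its 2 other probes differed by -0.83 (adjusted p = 0.0698) and -0.02 (adjusted p = 0.990), so the probes of TRIM24 disagreed.

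Among 19 measured HP1 partners, 1 rose and 18 did not pass, with a list median of -0.02. UHRF1, which binds methylated H3K9 and hemimethylated DNA and recruits the maintenance DNA methyltransferase, read 12.56 and 12.97 in H9 knockdown, against 12.47 and 12.06 in H9 mismatch, and 12.33 and 12.33 in CT2 knockdown, against 11.08 and 11.48 in CT2 mismatch. The knockdown arrays of each line lay above its mismatch arrays, and UHRF1 rose by 0.78 ± 0.16 (adjusted p = 0.00967), with 1.06 ± 0.46 for its other probe (adjusted p = 0.266). With the mismatch hairpin UHRF1 fell relative to untreated cells (-0.77 ± 0.16, adjusted p = 0.0408), and knockdown and untreated arrays differed by 0.01 (adjusted p = 0.994). These comparisons share the mismatch or untreated arrays.

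Of the PRDM family, 2 of 3 listed genes were measured. MECOM, a zinc finger factor with a PR domain, read 6.18 and 7.12 in H9 knockdown, against 5.86 and 5.43 in H9 mismatch, and 6.58 and 6.62 in CT2 knockdown, against 5.44 and 5.88 in CT2 mismatch. It was detected on all 4 knockdown arrays and on 0 of the 4 mismatch arrays (detection p 0.0701 to 0.265), so its rise (adjusted p = 0.0470) was at least 1.52-fold, the knockdown mean of 6.63 set against the lowest detected signal of the mismatch arrays, a mean of 6.02. The measured mismatch mean was 5.64 in H9 and 5.66 in CT2. Untreated arrays read 6.38 and 6.01 in H9 and 6.32 and 5.90 in CT2, with all but the last detected, and the knockdown differed from them by 0.48 ± 0.26 (adjusted p = 0.453).

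None of the 5 measured EHMT partners passed between knockdown and mismatch (list median 0.03), and of 11 measured H3K9 demethylases JMJD1C fell and 10 did not pass (list median -0.22). Of the 4 calls among partners, only UHRF1 passed with the replicate number fitted as a block (limma, adjusted p = 0.0186). CHAF1A (adjusted p = 0.0686), TRIM24 (0.0583) and MECOM (0.0884) then did not. With the authors' deposited value table MECOM did not pass (0.42, adjusted p = 0.0597), and CHAF1A, TRIM24 and UHRF1 did. The 4 calls also rested on the arrays in unequal measure. With single arrays left out, UHRF1 passed in 9 of 12 settings (adjusted p 0.00348 to 0.0739), CHAF1A in 5 (0.0175 to 0.182), TRIM24 in 4 (0.00748 to 0.204) and MECOM in 4 (0.0317 to 0.234). Without both odd arrays all 4 passed, with adjusted p-values of 3.55e-04 to 0.0163. CHD3 (lower) then joined the calls among the 15 partners of TRIM28 and SETDB1, and POGZ (higher) and KMT5B (lower) those among the 19 HP1 partners, where 8.07% of all probes kept then were called.

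Between the lines, the leading partners of TRIM28 and SETDB1 were ZNF274, a zinc finger protein that brings SETDB1 to repeated genes (-1.14 ± 0.27, adjusted p = 0.0134, with 1 of its 3 probes, the others at 0.02 and 0.15), and RESF1, a SETDB1 interactor (-0.41 ± 0.12, adjusted p = 0.0414, its other probe at -0.49). PPHLN1, a subunit of the HUSH complex, was another call among the 15 (0.37 ± 0.11, adjusted p = 0.0490). Its other tested probes, at 0.20, 0.17 and 0.33, did not pass. Among HP1 partners UHRF1 (0.66 ± 0.13, adjusted p = 0.00315) and SMCHD1 (0.77 ± 0.20, adjusted p = 0.0210) were higher in H9. Without both odd arrays ZNF10 and SENP7, both lower in H9, and the demethylase PHF2, higher in H9, were also called. ZNF518B, an EHMT2 partner, was higher in H9 (0.80 ± 0.15, adjusted p = 0.00256) and in both hairpin groups against untreated cells, by 0.93 ± 0.18 with the knockdown (adjusted p = 0.0142) and 1.02 ± 0.18 with the mismatch hairpin (adjusted p = 0.0208).

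**Figure D5:**
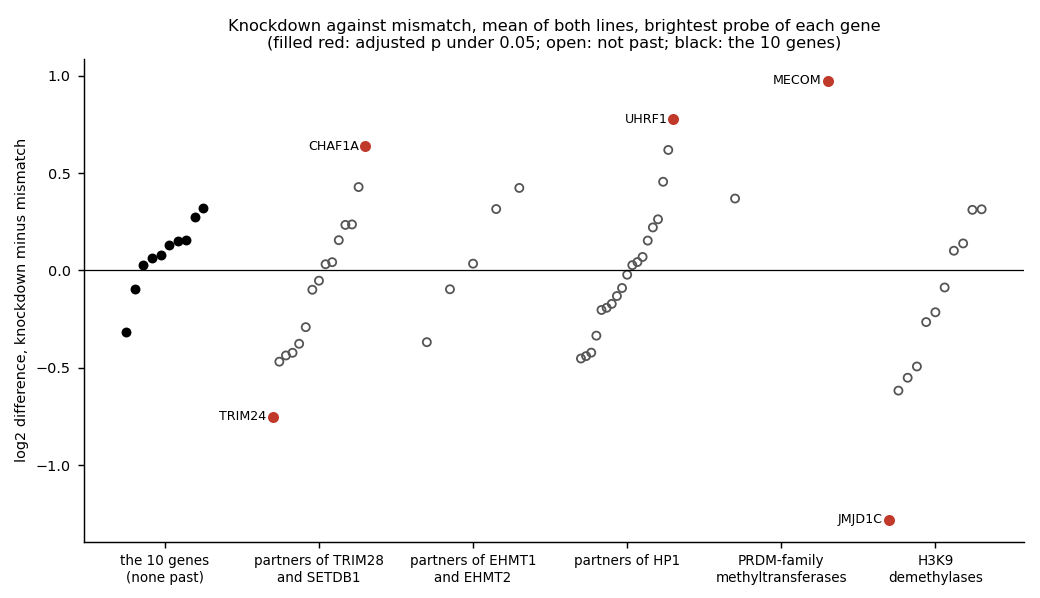
Log2 difference, knockdown minus mismatch in the mean of both lines, of the brightest kept probe of each gene, for the 10 genes (black) and 5 lists of partner genes. Red points passed the threshold and open points did not; CHAF1A, UHRF1 and MECOM lie above 0, TRIM24 and JMJD1C below it, and the 10 genes lie between -0.31 and 0.32.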

How the data were processed

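RNA of 12 samples was measured on Illumina bead arrays. The deposited values are mean bead intensity per probe, non-normalized, with a detection p-value, per the file headers, in 1 file with a block of columns for each line. GenomeStudio made them, per the submitters' processing notes, in a version not given in sources used here. For the whole series, a value table holds the authors' normalized intensity on a linear scale, with column medians of 179.8 to 180.3. Its direction and scale follow the scanner values (lowest r 0.9993 per array) and its method is not named. When the sorted values of 2 arrays were compared, 99.9852% of ranks differed by less than 1% inside each line, against 27.3915% at most between the lines, which places the normalization inside each line.

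From the intensity values, background was corrected by normexp (limma 3.58.1 in R 4.3.3; controls inferred from detection p-values, offset 16), arrays were quantile-normalized together and log2 was taken. Of 47314 shared probes, 25905 were kept, namely those that 2 or more arrays detected (p under 0.05). The platform table gave 30108 probes 1 symbol, 8 several and 17198 none. One mean per group was fitted (empirical Bayes with trend, robust), with two-sided tests and Benjamini-Hochberg adjustment over all kept probes at 0.05. A ± beside a log2 difference is its standard error from this fit. The procedure was tested on simulated data. Precision is limited by 2 arrays a group.

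The 10 genes and the lists (partners of TRIM28 and SETDB1, of EHMT and of HP1, PRDM genes, H3K9 demethylases, cell type markers) were chosen with earlier results of these data known. All tested probes of the 10 genes are named. Of the lists, genes past the threshold are named, and of all probes the best match to each gene. Comparisons of the lines within knockdown and within mismatch arrays, and of the lines' effects against untreated cells, were added after the data were seen. Alternatives were median scaling, no background correction, no detection filter or detection on all 12 arrays, no trend or robust setting, 1 probe per gene, the authors' table, a replicate block and leaving out arrays. Replicate numbers were checked for pairing by correlating replicate differences between groups of a line. The correlations were -0.299, -0.302 and 0.174 in H9 and -0.197, 0.051 and 0.020 in CT2. The numbers were therefore left out of the main fit and entered only in the alternative with a replicate block. No label gives a slide or date. Promoter sequences are from RefSeq.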

Additional observations from a re-analysis of the deposited data

Results flagged for a closer look

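Against untreated cells, 5 probes of the 10 genes had all arrays of one line above, and all of the other below, the untreated arrays, or the reverse, in 6 comparisons of the 5 probes. The share of kept probes with opposite lines in this way was 11.8% for the mismatch hairpin and 7.42% for the knockdown, against 5.84% between the hairpins. The difference between the lines was tested as an interaction and passed the threshold in 0 of the 6.

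Between mismatch and untreated cells, TRIM28 differed by -0.95 in H9 and 0.65 in CT2, an interaction of -1.606 (limma, adjusted p = 0.106). The dimmer EHMT1 probe differed by -1.05 in H9 and 0.94 in CT2, an interaction of -1.989 (adjusted p = 0.0672). That probe was detected on both arrays of untreated H9 and of CT2 mismatch, and on 1 of 2 in H9 mismatch and in untreated CT2, where its level was near background. SUV39H2 differed by 0.11 in H9 and -0.996 in CT2, an interaction of 1.108 (adjusted p = 0.232). EHMT2 differed by -0.31 in H9 and 0.21 in CT2, an interaction of -0.5217 (adjusted p = 0.449).

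Between knockdown and untreated cells, TRIM28 differed by -0.77 in H9 and 0.63 in CT2, an interaction of -1.399 (adjusted p = 0.603). The dimmer CBX3 probe differed by -0.23 in H9 and 0.64 in CT2, an interaction of -0.8669 (adjusted p = 0.690). Over all kept probes the interaction was called for 846 with the mismatch hairpin and for 34 with the knockdown. Untreated H9 and CT2 mismatch hold the arrays that stood apart, and their part in these differences was not tested.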

How the results depend on the processing

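Calls among the 12 probes were counted under each alternative. Knockdown against mismatch in the mean of both lines gave 0 to 1 calls with single arrays left out, the 1 being the dimmer EHMT1 probe without CT2 mismatch replicate 1. In CT2 it gave 0 to 2, the 2 (SUV39H2 and the dimmer EHMT1 probe) without the same array. In H9 it gave 0 in every such setting, and 1 (SETDB1) without both odd arrays (CT2 mismatch replicate 2 and untreated H9 replicate 1). The comparison of the lines gave 0 to 3 with single arrays left out. It gave 1 call (SETDB1) without H9 untreated replicate 1 or CT2 mismatch replicate 1, and 3 (SUV39H1, EHMT1 and TRIM28, adjusted p 0.0214 to 0.0319) without CT2 mismatch replicate 2. It gave 3 (SETDB1, SUV39H1 and EHMT1, adjusted p 0.0142 to 0.0363) without both odd arrays, 2 with untreated arrays only, 2 with the authors' table, 1 under median scaling and 1 with 1 probe per gene. The difference between the lines, and each hairpin against untreated cells, gave 0 calls under every alternative run. With the replicate number as a block all 7 comparisons gave 0 calls. Calls over all kept probes moved too, between the lines from 2213 of 25905 to 4497 with the authors' table and 2667 under median scaling. With 1 probe per gene they were 1703 of 13951. Between knockdown and mismatch they also rose without CT2 mismatch replicate 1, in CT2 and in the mean of both lines. They rose between the lines without CT2 mismatch replicate 2, and both in H9 and between the lines without both odd arrays. In these settings a higher count was not particular to the 12 probes. Of 1480 values of single genes under the alternatives, 1351 kept their sign and side of the threshold, 16 newly passed, and 113 changed sign with no call on either side. Among all probes called between knockdown and mismatch 48.9% were higher with the knockdown, and 66.1% under median scaling. This share moved from 42.4% to 56.3% in H9, from 63.3% to 73.7% in CT2, and from 44.9% to 60.1% against untreated cells. Why a call changed, with fewer arrays or with another scaling, was not tested. With 2 arrays a group, differences well below 1 log2 unit could often not be told from the spread.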
